A study of Mus musculus with 12 samples.

Results

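The 10 genes described here are transcriptional targets of p53, the product of Trp53: Cdkn1a, Ccng1, Phlda3, Ddit4l, Fas, Bax, Bbc3, Mdm2, Zmat3 and Trp53inp1. They were taken by name from the 48709 gene identifiers counted in each library and compared over the 4 groups of a cell sort. These genes and the other lists below were chosen with earlier results of these data known. Their counts and medians beside those of all genes are therefore a description and no independent support. The cells came from hypothalami of C57BL/6 mouse embryos at embryonic day 18, were dissociated, infected at a multiplicity of infection of 10 and grown as neurospheres, floating clusters of neural cells. Basic fibroblast growth factor (10 ng/ml) was added 24 h after seeding, and the spheres were dissociated for sorting after a week. One sort gave mCherry-positive and mCherry-negative cells, from cultures given an adeno-associated virus with a reporter for Hcrt (hypocretin) neurons. The other gave EGFP-positive cells and EGFP-negative cells, out of cultures given a lentivirus with a reporter for neurons of melanin-concentrating hormone (MCH, gene Pmch). Each group had 3 libraries. All 4 groups thus came from cultures given a virus and the growth factor, and no group came from a culture without virus. The promoters of the reporters, the number of embryos and the origin of the replicates are not stated in the sources used here. The p-values below measure only the spread between these libraries, which may be technical.

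p53 is a transcription factor that is kept low by the ubiquitin ligase Mdm2 and accumulates after DNA damage, oncogene activity and other stress. It binds DNA as a tetramer at paired half-sites and switches on genes that stop the cell cycle, repair or detoxify, or kill the cell. One of its targets is Mdm2 itself, which closes a feedback loop. In the embryonic brain it is known for removing damaged progenitor cells and for restraining their self-renewal.

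The sequences below are the 250 bases upstream of the RefSeq transcript start (GRCm38.p6, gene strand, 5′ to 3′) of the members in which a p53 half-site was found. Every member with a match is shown, whatever its call. Of these genes 3, Cdkn1a, Ccng1 and Ddit4l, were called higher in EGFP-positive cells. The other 2, Mdm2 and Bax, were called in neither sort. Fas and Phlda3 were also called higher in EGFP-positive cells and had no match. Capitals mark the bases that match the half-site consensus, a 10-base pattern that reads the same on both strands. Where 2 matches occurred, both are in capitals.
Cdkn1a, chr17:29090729-29090978, plus strand: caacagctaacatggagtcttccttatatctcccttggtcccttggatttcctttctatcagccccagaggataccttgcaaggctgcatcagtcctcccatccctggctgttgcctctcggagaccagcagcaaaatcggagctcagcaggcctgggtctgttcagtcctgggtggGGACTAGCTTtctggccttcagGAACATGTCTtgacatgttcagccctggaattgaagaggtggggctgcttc
Ccng1, chr11:40755287-40755536, minus strand: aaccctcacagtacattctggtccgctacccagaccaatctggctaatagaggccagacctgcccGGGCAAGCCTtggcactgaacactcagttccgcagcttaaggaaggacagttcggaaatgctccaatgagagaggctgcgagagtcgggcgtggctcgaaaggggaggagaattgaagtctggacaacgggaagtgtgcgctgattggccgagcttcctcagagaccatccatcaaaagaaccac
Ddit4l, chr3:137623422-137623671, plus strand: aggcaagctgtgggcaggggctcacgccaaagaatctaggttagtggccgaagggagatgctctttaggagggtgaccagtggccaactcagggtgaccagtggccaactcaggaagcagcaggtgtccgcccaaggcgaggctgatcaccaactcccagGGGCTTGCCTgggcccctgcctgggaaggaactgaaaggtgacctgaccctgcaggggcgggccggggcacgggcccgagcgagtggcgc
Mdm2, chr10:117710759-117711008, minus strand: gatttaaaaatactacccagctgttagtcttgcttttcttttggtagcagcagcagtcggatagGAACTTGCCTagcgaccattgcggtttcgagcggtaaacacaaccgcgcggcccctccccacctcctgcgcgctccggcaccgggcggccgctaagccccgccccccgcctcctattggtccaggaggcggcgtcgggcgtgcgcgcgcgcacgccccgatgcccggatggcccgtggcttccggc
Bax, chr7:45466899-45467148, minus strand: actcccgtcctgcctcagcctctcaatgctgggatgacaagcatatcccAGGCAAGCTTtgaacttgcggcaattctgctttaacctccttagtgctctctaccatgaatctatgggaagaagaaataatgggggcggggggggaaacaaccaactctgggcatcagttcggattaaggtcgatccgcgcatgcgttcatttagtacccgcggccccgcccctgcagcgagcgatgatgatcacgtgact

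RefSeq promoter entries were at hand for 8 of the 10 members, with 11 start sites among them. Zmat3 and Trp53inp1 are named only. A half-site lay within 250 bases of a start in 5 of the 8 genes. The Cdkn1a window held 2 matches, beginning 73 and 51 bases upstream of the start, and the window of its other start held none. The single matches began 90 bases upstream in Ddit4l, 185 in Ccng1, 186 in Mdm2 and 201 in Bax. No match was found in the windows of Fas and Phlda3 or in the 3 windows of Bbc3. Over all RefSeq windows of the same length, 2341 of 32851 (7.13%) held at least 1 match, and over genes the share was 8.20% (2216 of 27025). Of the 25 other p53 targets listed here, 18 had an entry and 6 of these held a match (33.3%). The best-studied p53 sites of Mdm2 lie in its first intron, outside this window. A match is a description of letters, and its absence in this window says nothing of the factor.

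**Figure D1:**
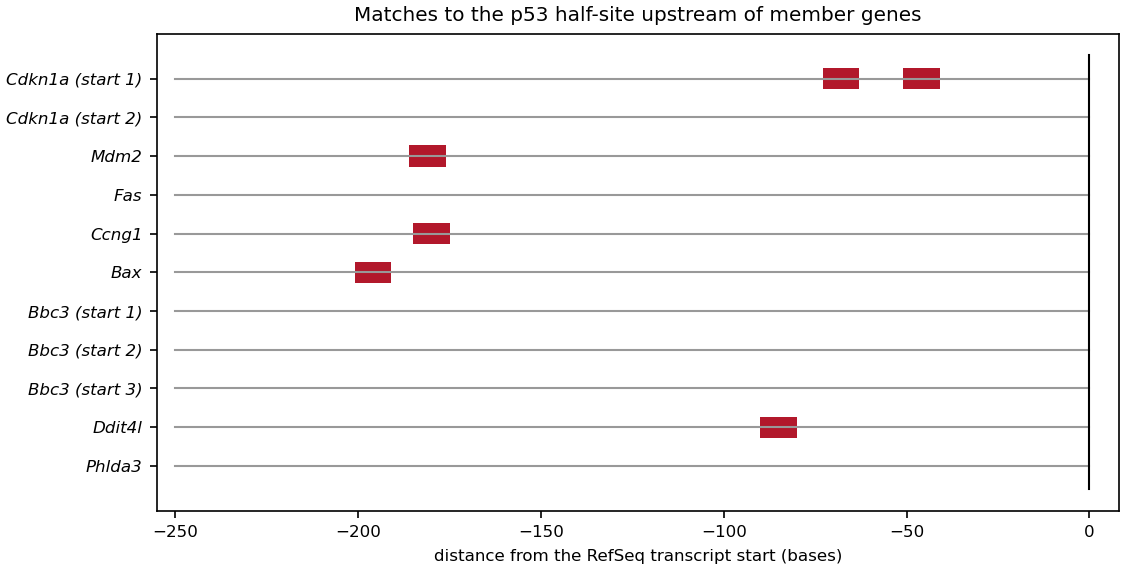
Positions of matches to the p53 half-site in the 250 bases upstream of the RefSeq starts of the member genes, with distance from the start in bases on the horizontal axis and 1 line per start site. Marks stand for matches; Cdkn1a has 2 in 1 of its windows, and the windows of Fas, Phlda3 and Bbc3 have none.

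Sequencing gave 16.3 to 32.9 megareads in genes per library, and every member passed the filter on low counts in every comparison. The lowest member count in any library was 224 reads (Fas) and the highest 12854 reads (Ccng1). Mitochondrial genes took 1.06% to 1.54% of gene reads in mCherry-positive libraries, 0.805% to 0.953% in mCherry-negative, 0.766% to 0.872% in EGFP-positive and 1.16% to 1.36% in EGFP-negative libraries. Replicates spread more in the mCherry sort than in the EGFP sort, with a common coefficient of variation between replicates of 0.382 and 0.189. Of the sorted cell types' own genes, Hcrt stood near the detection limit in all groups, with 21 reads in all in mCherry-positive libraries, against 11 in mCherry-negative. Pmch averaged 17.2 ± 0.769 CPM (counts scaled to 1000000 reads in genes) in EGFP-positive and 4.68 ± 0.587 CPM in EGFP-negative cells (SD, n = 3 each) and rose in EGFP-positive cells (log2 fold change 1.99 ± 0.18, SE; adjusted p = 3.16e-04, the quasi-likelihood test of edgeR, Benjamini-Hochberg adjusted). The hallmark transcript of Hcrt neurons was thus near absent from the mCherry-positive libraries, while genes of glia were abundant in all groups. Summed over 8 astrocyte markers, the level was 8799 to 11748 CPM in mCherry-positive, 4512 to 7851 in mCherry-negative, 14709 to 17427 in EGFP-positive and 8168 to 8336 CPM in EGFP-negative libraries.

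Cdkn1a (ENSMUSG00000023067) encodes an inhibitor of cyclin-dependent kinases that halts the cell cycle, and it is the classic arrest gene of p53. It spans chr17:29090976-29100727 on the plus strand (GRCm38, GENCODE M21 gene models throughout). In replicate order its level was 165, 168 and 176 CPM in mCherry-positive libraries, against 110, 144 and 119 CPM in mCherry-negative libraries. It was 143, 117 and 96.6 CPM in EGFP-positive libraries, against 83.3, 76.4 and 76.7 CPM in EGFP-negative libraries. In both sorts every positive library lay above every negative one, and the mCherry-negative libraries lay above all 3 EGFP-negative ones. Of its 3553 exon bases, 7.68% are shared with AC167363.2 on the opposite strand, and whether the counting used strand was not given.

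Ccng1 (ENSMUSG00000020326, chr11:40748552-40755311, minus strand) encodes cyclin G1, an atypical cyclin that brings a phosphatase to Mdm2. It had 525, 322 and 293 CPM in mCherry-positive libraries, against 218, 257 and 110 CPM in mCherry-negative libraries. The EGFP-positive libraries had 148, 244 and 299.8 CPM, against 111, 141 and 152 CPM in EGFP-negative libraries. All mCherry-positive libraries were above all mCherry-negative ones. In the EGFP sort, positive replicate 1 fell within the range of the negative libraries and the other two lay above it.

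Phlda3 (ENSMUSG00000041801, chr1:135766119-135769136, plus strand) encodes a small protein that blocks activation of the kinase Akt. Its level was 108, 114 and 102 CPM in mCherry-positive libraries, against 75.2, 81.2 and 68.6 CPM in mCherry-negative libraries. In EGFP-positive libraries it was 109, 92.0 and 82.2 CPM, against 75.5, 61.1 and 62.1 CPM in EGFP-negative libraries. The positive libraries lay above the negative ones without overlap in both sorts.

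Ddit4l (ENSMUSG00000046818, chr3:137621612-137628333, plus strand) encodes a relative of Ddit4, an inhibitor of the growth regulator mTOR complex. It had 105, 82.3 and 74.5 CPM in mCherry-positive libraries, against 63.1, 67.2 and 48.3 CPM in mCherry-negative libraries. The EGFP-positive libraries had 104, 91.0 and 86.7 CPM, against 46.9, 50.1 and 50.8 CPM in EGFP-negative libraries. Again no positive library reached down to a negative one, and the gap was widest in the EGFP sort.

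Fas (ENSMUSG00000024778, chr19:34290666-34327772, plus strand) encodes the cell-surface death receptor of the ligand Fasl. It had 46.3, 26.3 and 34.9 CPM in mCherry-positive libraries, against 15.5, 19.0 and 10.8 CPM in mCherry-negative libraries. The levels were 19.6, 22.6 and 21.9 CPM in EGFP-positive libraries, against 10.4, 10.7 and 13.8 CPM in EGFP-negative libraries. Both sorts separated without overlap, and the EGFP-positive range lay below the whole mCherry-positive range.

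Bax (ENSMUSG00000003873, chr7:45461697-45466898, minus strand) encodes the protein that opens the outer mitochondrial membrane in apoptosis. It had 109.7, 131 and 133 CPM in mCherry-positive libraries, against 132, 155 and 190 CPM in mCherry-negative libraries. In the EGFP sort it had 185, 134 and 107 CPM in positive libraries, against 192, 166 and 147 CPM in negative libraries. The groups overlapped in both sorts, with the lower mean in positive cells each time. A same-strand gene model, Gm45808, shares 12.2% of its exon bases, so its count is uncertain to that extent.

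Bbc3 (ENSMUSG00000002083, chr7:16308393-16318205, plus strand) encodes Puma, which triggers Bax and related proteins. It had 12.7, 21.7 and 27.8 CPM in mCherry-positive libraries, against 17.9, 19.95 and 27.6 CPM in mCherry-negative libraries. It had 17.2, 13.2 and 12.5 CPM in EGFP-positive libraries, against 14.96, 15.5 and 14.4 CPM in EGFP-negative libraries. Positive and negative libraries were interleaved in both sorts.

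Mdm2 (ENSMUSG00000020184, chr10:117688875-117710758, minus strand), the ubiquitin ligase that degrades p53, had 99.96, 92.8 and 119 CPM in mCherry-positive libraries, against 95.8, 119 and 83.9 CPM in mCherry-negative libraries. It had 65.2, 93.5 and 98.0 CPM in EGFP-positive libraries, against 73.5, 85.0 and 85.9 CPM in EGFP-negative libraries. The groups overlapped in both sorts, and the lowest of the 6 EGFP libraries was a positive one.

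Zmat3 (ENSMUSG00000027663, chr3:32334792-32366014, minus strand) encodes a zinc-finger protein that binds RNA. It had 30.6, 24.1 and 26.2 CPM in mCherry-positive libraries, against 26.0, 16.6 and 21.6 CPM in mCherry-negative libraries. It had 26.1, 21.3 and 17.95 CPM in EGFP-positive libraries, against 35.5, 28.4 and 31.2 CPM in EGFP-negative libraries. The mCherry groups overlapped, and all EGFP-positive libraries lay below all EGFP-negative ones, a side no other member took without overlap.

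Trp53inp1 (ENSMUSG00000028211, chr4:11156431-11174379, plus strand) encodes a stress-induced nuclear protein that binds p53 and also takes part in autophagy. It had 129.7, 57.6 and 110 CPM in mCherry-positive libraries, against 81.5, 63.5 and 39.9 CPM in mCherry-negative libraries. It had 35.6, 63.4 and 106 CPM in EGFP-positive libraries, against 46.4, 53.6 and 69.7 CPM in EGFP-negative libraries. Its spread among EGFP-positive libraries, a coefficient of variation of 51.7%, was the widest of any member in any group.

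**Figure D2:**
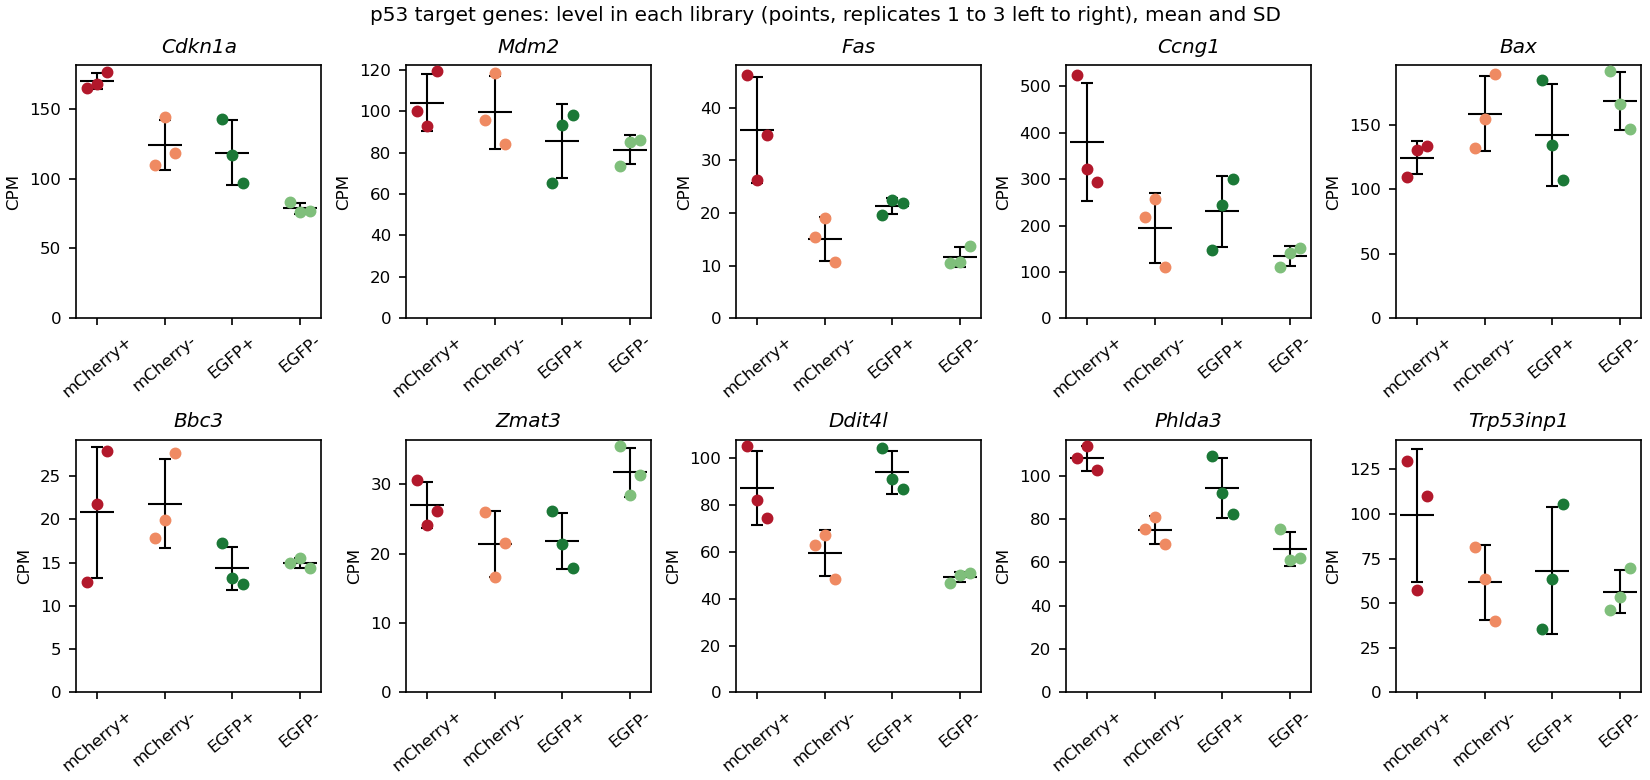
Level in CPM (vertical axes, from 0) of each member in each library, by group, with the mean and SD over 3 libraries. Cdkn1a, Fas, Ddit4l and Phlda3 separate positive from negative libraries in both sorts, and Bax, Bbc3, Mdm2 and Trp53inp1 in neither.

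Per kilobase of exon, which allows genes to be set side by side, Bax was highest of the 10 in 3 groups. Its mean level was 101 ± 18.5 CPM per kb in mCherry-negative, 90.2 ± 25.0 in EGFP-positive and 107 ± 14.2 CPM per kb in EGFP-negative cells (SD, n = 3 each). In EGFP-positive cells its gap to Ccng1 (65.7 ± 21.8 CPM per kb) lay within its spread. In mCherry-positive cells Ccng1 came first with 108 ± 35.98 CPM per kb, above Bax with 79.1 ± 8.25, a gap within the spread of Ccng1. Phlda3 (69.4 ± 3.68 CPM per kb in mCherry-positive, 48.1 ± 4.03 in mCherry-negative, 60.6 ± 8.82 in EGFP-positive and 42.5 ± 5.16 in EGFP-negative cells) stood among the top 3 in every group. Cdkn1a followed after 3 other members in all groups with 47.8 ± 1.61, 35.0 ± 4.98, 33.4 ± 6.51 and 22.2 ± 1.11 CPM per kb in the same order of groups. By mean, Ddit4l and Mdm2 were the fifth and the sixth everywhere. In EGFP-negative cells their means of 16.9 ± 0.715 and 16.03 ± 1.35 CPM per kb did not differ beyond their spread. The same held in mCherry-negative cells (20.4 ± 3.41 and 19.6 ± 3.47 CPM per kb). In EGFP-positive cells it also held for Cdkn1a and Ddit4l (33.4 ± 6.51 and 32.2 ± 3.11 CPM per kb). The order of Fas, Trp53inp1 and Bbc3 changed between groups, and these neighbours lay within each other's spread in EGFP-positive cells for Trp53inp1 (10.5 ± 5.46) and Fas (10.4 ± 0.752). Zmat3 was the lowest of the 10 in all groups, with means of 1.87 to 2.77 CPM per kb.

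The EGFP sort asked which genes set the reporter-positive cells apart from the rest of the same cultures. In EGFP-positive cells 5 of the 10 members rose and none fell, where 8.99% of the 16326 genes tested rose and 7.07% fell, 16.1% in all. Because the list was chosen with earlier results of these data known, this contrast is only a description. The 5 were the arrest and growth-control genes Cdkn1a, Ccng1, Phlda3 and Ddit4l and the death receptor Fas. Ddit4l rose 2.05-fold (log2 fold change 1.04 ± 0.12, SE; adjusted p = 7.73e-04), with means of 93.9 ± 9.08 CPM in EGFP-positive and 49.3 ± 2.08 CPM in EGFP-negative cells (SD, n = 3 each; this and all adjusted p here from the quasi-likelihood test of edgeR, Benjamini-Hochberg adjusted over all genes). Fas rose 1.99-fold, by 0.99 ± 0.17 on the log2 scale (adjusted p = 0.00521). The rise of Ccng1 was 0.89 ± 0.24 (adjusted p = 0.0329), that of Cdkn1a 0.70 ± 0.14 (adjusted p = 0.0116) and that of Phlda3 0.62 ± 0.14 (adjusted p = 0.0179), all on the log2 scale.

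The apoptosis effectors within the list did not pass the test in the EGFP sort. The log2 fold change was -0.14 ± 0.18 for Bax (adjusted p = 0.658) and 0.04 ± 0.17 for Bbc3 (adjusted p = 0.910). Mdm2, with 0.18 ± 0.17 (adjusted p = 0.515), and Trp53inp1, with 0.39 ± 0.34 (adjusted p = 0.477), were also not called. Zmat3 had a log2 fold change of -0.44 ± 0.17 (adjusted p = 0.115). Over the list, the median log2 fold change was 0.51, against -0.01 over all genes tested, and 8 of 10 members were above 0. In plain CPM, 4 members (Cdkn1a, Fas, Ddit4l and Phlda3) lay higher in all positive than in all negative libraries, a pattern found in 13.4% of genes, and 1 (Zmat3) lay lower, found in 24.5%.

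How many members were called turned on single EGFP libraries. Fas and Ddit4l were called in each of the 6 fits that left out 1 library. They were the only 2 called without positive replicate 2, negative replicate 2 or negative replicate 3, where 6.72%, 6.74% and 7.92% of all genes were called. Without positive replicate 3 or negative replicate 1, where 14.7% and 7.62% of genes were called, Cdkn1a and Phlda3 were called as well. Leaving out positive replicate 1 gave 8 called members: the same 5 rose, Mdm2 (0.36, adjusted p = 0.0255) and Trp53inp1 (0.72, adjusted p = 0.0160) rose too, and Zmat3 fell (-0.56, adjusted p = 0.0143). In that fit 30.9% of all genes were called. With all 12 libraries in 1 fit Ccng1 was no longer called.

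**Figure D3:**
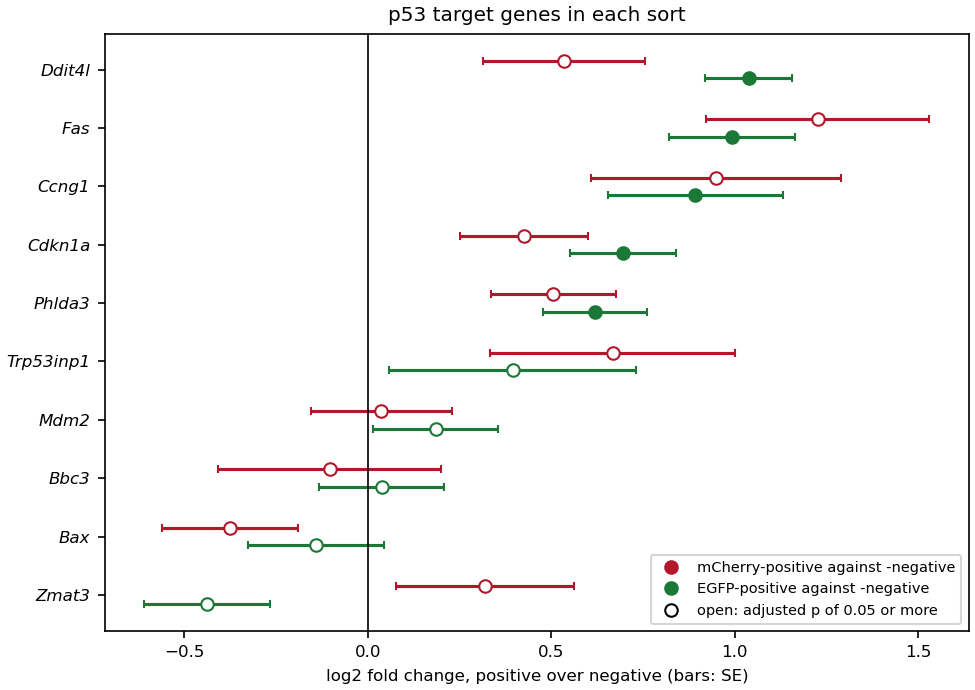
Log2 fold change of each member (horizontal axis; reporter-positive over reporter-negative cells, bars are SE) in the mCherry and the EGFP sort, with filled points for an adjusted p under 0.05. Called members are Cdkn1a, Ccng1, Phlda3, Ddit4l and Fas in the EGFP sort, and none in the mCherry sort.

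Positive replicate 1 of the EGFP sort was the lowest of its group for Ccng1, Fas, Mdm2 and Trp53inp1 and the highest for the other 6 members. It also had the fewest gene reads of the group, 17.0 megareads, against 26.9 and 30.9 megareads in the other two. In the mCherry sort, positive replicate 1 was the highest of its group for Ccng1, Fas, Trp53inp1, Ddit4l and Zmat3 and the lowest for Cdkn1a, Bax and Bbc3. The 10 genes thus did not move as a block between replicates of 1 group.

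**Figure D4:**
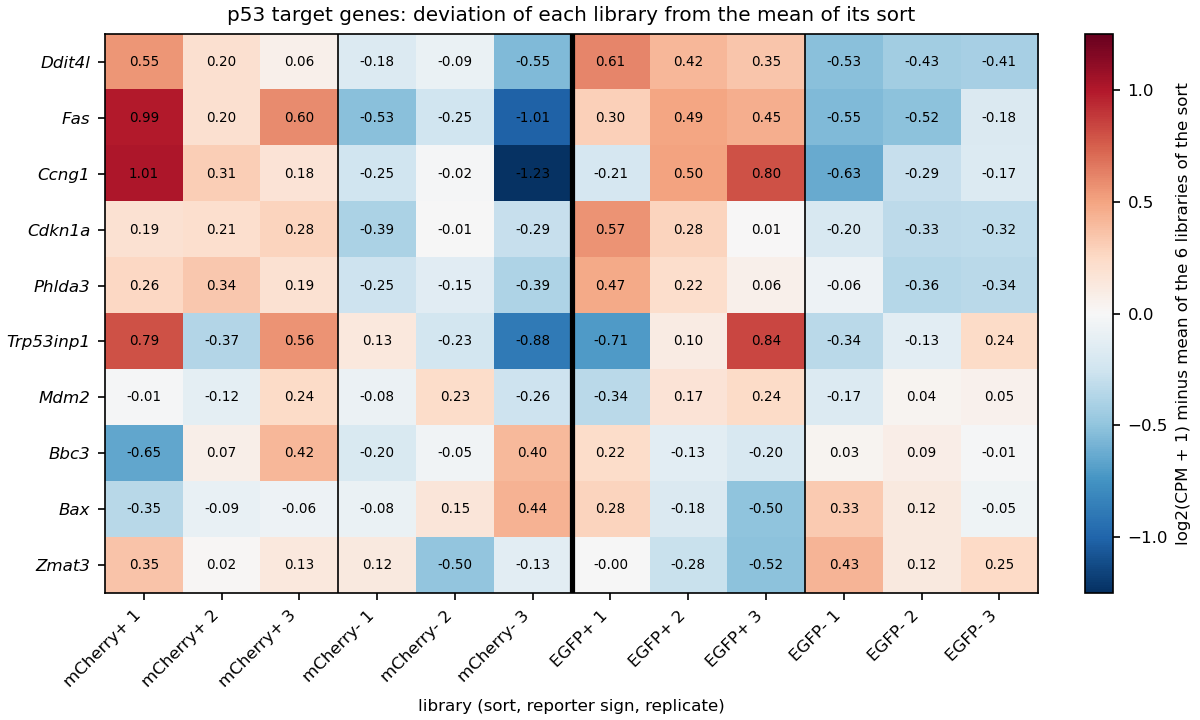
Deviation of each member in each library (columns) from the mean of the 6 libraries of its sort, as log2(CPM + 1). All positive libraries are above the mean of their sort for Cdkn1a, Fas, Ddit4l and Phlda3, while Ccng1, Mdm2 and Trp53inp1 run low in EGFP-positive replicate 1.

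The mCherry sort made the same comparison for the Hcrt reporter. Here 0 of the 10 members passed the test, where 1.20% of 17369 genes were called (0.541% higher, 0.656% lower). The largest log2 fold changes were those of Fas (1.23 ± 0.31, SE; adjusted p = 0.0837) and Ccng1 (0.95 ± 0.34, adjusted p = 0.182), followed by Trp53inp1 (0.67 ± 0.33, adjusted p = 0.316), in the quasi-likelihood test of edgeR, Benjamini-Hochberg adjusted. Ddit4l had 0.54 ± 0.22 (adjusted p = 0.235), Phlda3 0.51 ± 0.17 (adjusted p = 0.159) and Cdkn1a 0.43 ± 0.17 (adjusted p = 0.233). Zmat3 had 0.32 ± 0.24 (adjusted p = 0.514), Mdm2 0.04 ± 0.19 (adjusted p = 0.939), Bbc3 -0.10 ± 0.30 (adjusted p = 0.882) and Bax -0.37 ± 0.19 (adjusted p = 0.312).

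Before adjustment, 5 of the 10 had a p under 0.05 in the mCherry sort, where 3233 of 17369 genes (18.6%) did: Cdkn1a, Fas, Ccng1, Ddit4l and Phlda3. The same 5 lay higher in all positive than in all negative libraries, which held for 12.7% of genes tested. The median log2 fold change of the list was 0.47, against 0.02 over all genes. DESeq2 called 2 members, Fas and Ccng1, while calling 1476 genes in all (8.498%); without the filter on low counts, or with all 12 libraries in 1 fit, edgeR called Fas alone. No member was called by limma-voom, which called 1.42% of genes. The same held when 1 library was left out, but those fits called few genes of any kind: 212 without positive replicate 1, 29 without negative replicate 3, 16 without positive replicate 2 and 0 in the other 3.

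A test of the difference between both sorts called no member: 0 of 10 passed, where 1.44% of 18063 genes did (0.886% with a higher and 0.559% with a lower mCherry effect). Zmat3 was the 1 member with an unadjusted p under 0.05, where 15.1% of genes had one. Its effect in the mCherry sort exceeded that in the EGFP sort by 0.73 ± 0.29 on the log2 scale (adjusted p = 0.251, the quasi-likelihood test of edgeR, Benjamini-Hochberg adjusted). For Ddit4l the difference was -0.53 ± 0.25 (adjusted p = 0.339), for Cdkn1a -0.30 ± 0.22 (adjusted p = 0.566) and for Fas 0.21 ± 0.36 (adjusted p = 0.840). Ccng1 differed by 0.03 ± 0.46 (adjusted p = 0.984) and Phlda3 by -0.14 ± 0.21 (adjusted p = 0.810). DESeq2 and limma-voom also called 0 members. The 5 calls of the EGFP sort are therefore not shown to be particular to it.

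Between sorts, the virus, the reporter and the RNA input (0.8 ng for the Hcrt sort, 2 ng for the MCH sort) differ together and cannot be told apart. Among mCherry-positive against EGFP-positive cells, 0 of the 10 members passed, where 17.6% of genes did (9.90% higher, 7.67% lower). The nearest were Cdkn1a, with 169.95 ± 5.71 CPM in mCherry-positive and 119 ± 23.1 CPM in EGFP-positive cells (log2 fold change 0.37 ± 0.16, SE; adjusted p = 0.115), and Fas, with 35.8 ± 10.0 and 21.4 ± 1.55 CPM in the same order (0.60 ± 0.25, adjusted p = 0.116). Both had an unadjusted p under 0.05, as did 32.7% of genes, and DESeq2 and limma-voom called 0 members. Both genes, 2 of 10, were higher in every mCherry-positive library, as were 21.3% of all genes.

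Among mCherry-negative against EGFP-negative cells, Cdkn1a rose and was the 1 member called, where 3.96% of genes were called (2.67% higher, 1.29% lower). It averaged 124 ± 17.7 CPM in mCherry-negative and 78.8 ± 3.93 CPM in EGFP-negative cells (SD, n = 3 each; log2 fold change 0.67 ± 0.16, SE; adjusted p = 0.0269, the quasi-likelihood test of edgeR, Benjamini-Hochberg adjusted). The call was lost without mCherry-negative replicate 2 (adjusted p = 0.124) and without EGFP-negative replicate 1 (0.107), 2 (0.137) or 3 (0.133), at log2 fold changes of 0.52 to 0.69, in fits that called 2.80%, 1.43%, 1.81% and 1.84% of genes. With the replicate number as a block its adjusted p was 0.0505. Bbc3 (0.55 ± 0.26, adjusted p = 0.297) and Zmat3 (-0.56 ± 0.21, adjusted p = 0.167) had no overlap between these groups, as 12.6% (higher) and 13.0% (lower) of all genes did, and were not called.

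Trp53 itself, whose protein drives these genes, was not called in either sort. It had 68.3, 67.3 and 57.5 CPM in mCherry-positive libraries, against 108, 99.6 and 117 CPM in mCherry-negative libraries (log2 fold change -0.77 ± 0.18, SE; adjusted p = 0.0695, the quasi-likelihood test of edgeR, Benjamini-Hochberg adjusted). It had 123, 114 and 100.1 CPM in EGFP-positive libraries, against 146, 137 and 119.5 CPM in EGFP-negative libraries (-0.15 ± 0.12, adjusted p = 0.448). All mCherry-positive libraries lay below all mCherry-negative ones, while the EGFP groups overlapped. Its level was lower in mCherry-positive than in EGFP-positive cells (-0.95 ± 0.15, adjusted p = 8.23e-04). The p53 protein is controlled largely through its stability, so its transcript is no measure of its activity.

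Of 13 listed partners and regulators including Trp53, 12 passed the filter, and Cdkn2a did not, with 21, 14, 6 and 20 reads summed over the positive and negative libraries of the mCherry sort and those of the EGFP sort. In EGFP-positive cells, where 7.07% of all genes fell and 8.99% rose, 1 of the 12 fell and none rose. It was Hipk2, a kinase of p53, with 65.5 ± 3.24 CPM in EGFP-positive and 120 ± 15.4 CPM in EGFP-negative cells (log2 fold change -0.77 ± 0.13, SE; adjusted p = 0.00502, the quasi-likelihood test of edgeR, Benjamini-Hochberg adjusted). In mCherry-positive cells 0 of the 12 passed, where 1.20% of all genes did. Before adjustment 1 had a p under 0.05, Trp53, where 18.6% of all genes did. DESeq2 called 1 of the 12 (8.498% of all genes) and limma-voom 0 (1.42%). Mdm4, the partner of Mdm2 in holding p53 down, had 68.3 ± 5.95 CPM in mCherry-positive and 67.0 ± 22.4 CPM in mCherry-negative cells, and 54.9 ± 10.7 CPM in EGFP-positive and 61.6 ± 1.23 CPM in EGFP-negative cells.

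For 15 other p53 targets for arrest, metabolism and DNA repair, the median log2 fold change in EGFP-positive cells was 0.31. There, where 8.99% of all genes rose and 7.07% fell, 4 of the 15 rose and none fell. They were Gdf15, a secreted stress factor (1.24 ± 0.19, SE; adjusted p = 0.00304), Ephx1, a detoxifying hydrolase (1.03 ± 0.12, adjusted p = 9.49e-04), Sesn2, a stress-induced inhibitor of mTOR signalling (0.69 ± 0.11, adjusted p = 0.00316), and Btg2, an anti-proliferative gene (0.40 ± 0.09, adjusted p = 0.0138), in the quasi-likelihood test of edgeR, Benjamini-Hochberg adjusted. In mCherry-positive cells 0 of the 15 passed. Of these 3 had a p under 0.05 before adjustment, close to the 18.6% of all genes, and DESeq2 called 2 (8.498% of all genes) and limma-voom 0. Ephx1 had 233 ± 43.0 CPM in mCherry-positive and 149.9 ± 40.2 CPM in mCherry-negative cells, and Btg2 had 513 ± 80.5 and 499.7 ± 67.3 CPM in the same order.

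Of 10 other p53 targets for apoptosis, 2 rose and 1 fell in EGFP-positive cells, where 8.99% of all genes rose and 7.07% fell. The median log2 fold change of the 10 was 0.26. Perp, a membrane protein of cell contacts and p53-driven death, rose by 1.27 ± 0.26 (adjusted p = 0.0101), Eda2r, a receptor of the TNF family, rose by 0.87 ± 0.25 (adjusted p = 0.0448), and Trp53i11 fell by 0.47 (SE 0.10, adjusted p = 0.0155) in the quasi-likelihood test of edgeR, Benjamini-Hochberg adjusted. Trp53i11 also fell in mCherry-positive cells, where it was the 1 call of the 10, with 100.4 ± 29.1 CPM in mCherry-positive and 238 ± 20.1 CPM in mCherry-negative cells (-1.28 ± 0.22, adjusted p = 0.0349). In the mCherry sort 0.656% of all genes fell. Without any 1 of the mCherry libraries other than positive replicate 1, Trp53i11 was no longer called. Its log2 fold changes there were -1.20 to -1.41, in fits that called 0 to 29 genes in all.

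Among 10 partners of Bax and Bbc3 in the Bcl2 family, the survival gene Bcl2 rose in EGFP-positive cells (0.61 ± 0.12, SE; adjusted p = 0.0103), and the death genes Bok (-0.79 ± 0.14, adjusted p = 0.00554) and Hrk (-1.13 ± 0.32, adjusted p = 0.0415) fell, by the quasi-likelihood test of edgeR, Benjamini-Hochberg adjusted. Over all genes, 8.99% rose and 7.07% fell in EGFP-positive cells. None of the 10 passed in mCherry-positive cells, where 1.20% of all genes did. Before adjustment 1 had a p under 0.05 (18.6% of all genes), DESeq2 called 1 (8.498%) and limma-voom 0 (1.42%). The most abundant there, Mcl1, had 178 ± 23.2 CPM in mCherry-positive and 171 ± 14.0 CPM in mCherry-negative cells. Downstream of Fas, 5 of 6 listed genes passed the filter, and its ligand Fasl did not, with 0, 0, 6 and 19 reads in the positive and negative libraries of the mCherry sort and those of the EGFP sort. The kinase Ripk1 rose in EGFP-positive cells (0.73 ± 0.19, adjusted p = 0.0310), while the other 4 did not pass. In mCherry-positive cells 0 of the 5 passed, with 0 having p under 0.05 before adjustment and 0 in DESeq2 or limma-voom.

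The kinases and cyclins that Cdkn1a acts on are the machinery of cell-cycle entry. Of 9 listed, the D-type cyclins Ccnd1 (-1.003 ± 0.138, SE; adjusted p = 0.00193) and Ccnd3 (-0.40 ± 0.11, adjusted p = 0.0398) fell in EGFP-positive cells, by the quasi-likelihood test of edgeR, Benjamini-Hochberg adjusted. Over all genes, 7.07% fell in EGFP-positive cells. In mCherry-positive cells 0 of the 9 passed, although all 9 had a log2 fold change below 0, with a median of -0.94. There 6 had an unadjusted p under 0.05 (18.6% of all genes did). DESeq2 called 5 of the 9 (8.498% of all genes) and limma-voom 2 (1.42%). Cdk4 had 429.9 ± 35.0 CPM in mCherry-positive and 812 ± 182 CPM in mCherry-negative cells (-0.94 ± 0.20, adjusted p = 0.0560). Between the sorts, 7 of the 9 were called lower in mCherry-positive than in EGFP-positive cells, where 7.67% of all genes were.

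Of the 5 other inhibitors of cyclin-dependent kinases, Cdkn2b rose (0.98 ± 0.17, SE; adjusted p = 0.00508) and Cdkn1c fell (-1.26 ± 0.19, adjusted p = 0.00286) in EGFP-positive cells, by the quasi-likelihood test of edgeR, Benjamini-Hochberg adjusted. Over all genes, 8.99% rose and 7.07% fell in EGFP-positive cells, and 0.656% fell in mCherry-positive cells. In mCherry-positive cells Cdkn2c fell (-1.43 ± 0.22, adjusted p = 0.0316). In the 5 fits that left out an mCherry library other than positive replicate 1, and called 0 to 29 genes in all, it was not called, at -1.31 to -1.50. All 5 inhibitors had a p under 0.05 before adjustment in this sort (18.6% of all genes did), and all but Cdkn2b had a log2 fold change below 0. Cdkn1b, the closest relative of Cdkn1a in this list with Cdkn1c, was called in neither sort, at -0.70 ± 0.28 (adjusted p = 0.220) in the mCherry sort and -0.27 ± 0.17 (adjusted p = 0.327) in the EGFP sort.

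Genes of mitosis are on in dividing cells and are repressed when cells leave the cycle. In mCherry-positive cells 10 of 15 fell and none rose, where 0.656% of all genes fell and 0.541% rose. The median log2 fold change was -1.46. In plain CPM, 15 of 15 were lower in every positive than in every negative library, as were 12.7% of all genes. Cdca8, a subunit of the chromosome passenger complex, had 29.0 ± 2.10 CPM in mCherry-positive and 91.8 ± 5.33 CPM in mCherry-negative cells (-1.68 ± 0.18, SE; adjusted p = 0.0181, the quasi-likelihood test of edgeR, Benjamini-Hochberg adjusted). Leaving out 1 library gave 10 calls without positive replicate 1 (of 212 genes called in all), 1 without positive replicate 2 (of 16) and 4 without negative replicate 3 (of 29). The fits without positive replicate 3, negative replicate 1 or negative replicate 2 called 0 genes of any kind. In EGFP-positive cells, where 7.07% of all genes fell, 1 of the 15 fell, Cdc20 (-0.40 ± 0.11, adjusted p = 0.0366), and the median was -0.22. The difference between both sorts passed for 8 of the 15, all lower in the mCherry sort, as it did for 0.559% of all genes. The 8 included Cdca8 (-1.56 ± 0.19, adjusted p = 0.00277). All 15 were also called lower in mCherry-positive than in EGFP-positive cells, where 7.67% of all genes were. Of 6 relatives of the members, 5 passed the filter and 0 were called in either sort by edgeR. The 2 most abundant were Trp53inp2, with log2 fold changes of 0.05 ± 0.16 and 0.10 ± 0.14 in the mCherry and EGFP sorts, and Ccng2, with -0.62 ± 0.17 and -0.09 ± 0.15. At an unadjusted p under 0.05 there were 2 of the 5 in the mCherry sort and 0 in the EGFP sort, where 18.6% and 30.5% of all genes were. DESeq2 called 1 and 0 of the 5, and 8.498% and 21.6% of all genes.

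**Figure D5:**
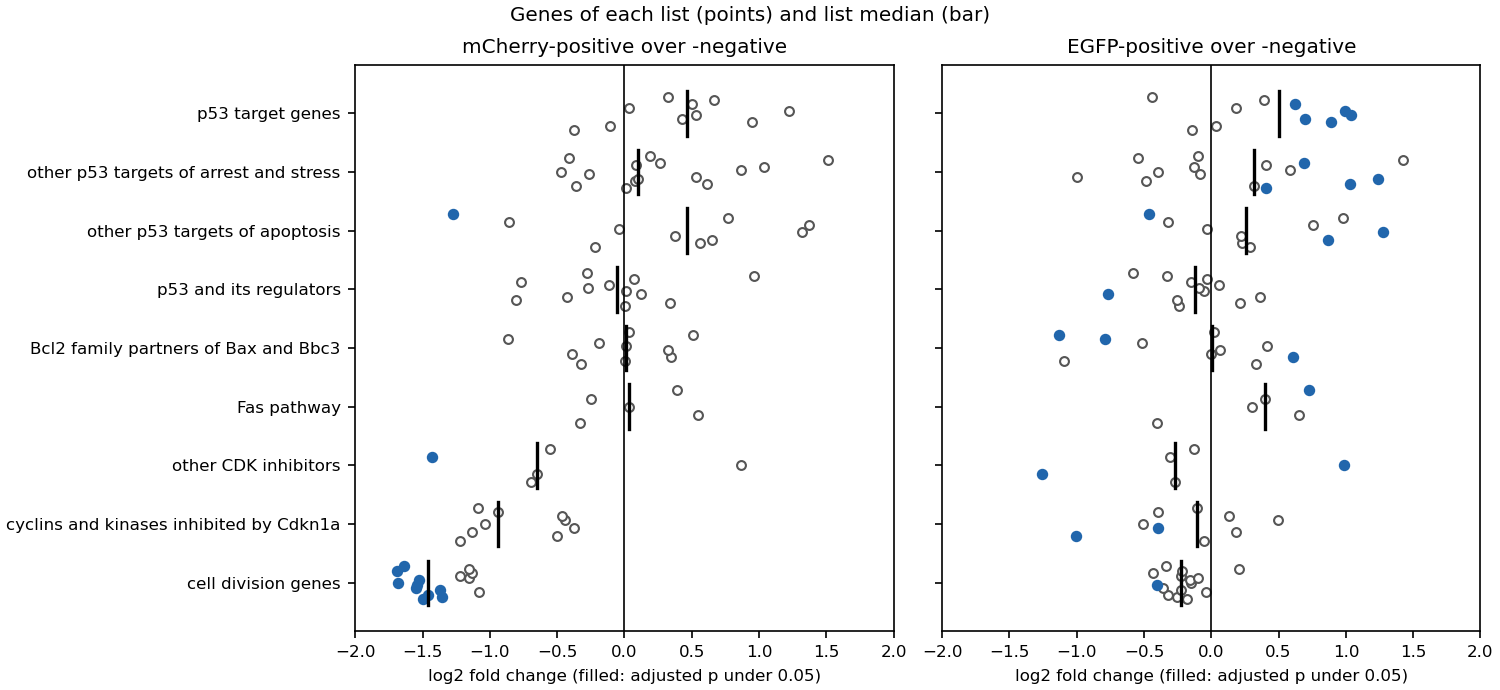
Log2 fold change of every tested gene (points, filled for an adjusted p under 0.05) of each list in the mCherry and the EGFP sort, positive over negative cells, with a bar at the list's median. The p53 target genes have medians of 0.47 and 0.51, and the cell division genes have -1.46 and -0.22.

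Markers of several cell types moved with the EGFP sort. Over all genes tested, 8.99% rose and 7.07% fell in EGFP-positive cells. In EGFP-positive cells 6 of 8 astrocyte markers rose and 1 fell, and 5 of 8 ependymal markers rose, with sums of 154 to 170.5 CPM in EGFP-positive and 92.1 to 103 CPM in EGFP-negative libraries. Oligodendrocyte markers fell for 7 of 8 (755 to 865 CPM in positive, 2988 to 3087 CPM in negative libraries). Neuronal markers fell for 5 of 8 (743 to 1038 CPM, against 1196 to 1283 CPM). Microglial markers fell for 7 of 8 and rose for 1 (7.02 to 8.93 CPM, against 34.8 to 46.5 CPM), and mural and fibroblast markers fell for 5 of 8 and rose for 2 (65.5 to 96.4 CPM, against 328 to 365 CPM). Pituitary markers fell for 3 of the 7 tested (37.2 to 64.5 CPM, with Fshb and Pou1f1 at 0 in EGFP-positive libraries, against 357 to 466 CPM). Endothelial markers, 4 of 8 tested, were near the detection limit (4.99 to 5.58 CPM, with Cdh5 and Tek at 0 in EGFP-positive libraries, against 6.08 to 8.19 CPM). Their part in the rises of Cdkn1a, Ccng1, Phlda3, Ddit4l and Fas was not tested, and in bulk libraries fewer cells of a type and less RNA per cell cannot be told apart.

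In the mCherry sort 1 of 8 astrocyte and 1 of 8 ependymal markers rose (ependymal sums of 77.0 to 124 CPM in mCherry-positive and 32.7 to 64.1 CPM in mCherry-negative libraries), and no marker fell. Over all genes tested, 0.541% rose and 0.656% fell in this sort. Microglial markers summed to 591, 69.8 and 81.5 CPM in mCherry-positive libraries 1, 2 and 3, against 28.1 to 157 CPM in mCherry-negative libraries. Positive replicate 1 had the highest microglial, astrocyte (11748 CPM) and ependymal (124 CPM) sums of the sort and the highest Fas and Ccng1. Negative replicate 3 had the second-highest microglial sum (157 CPM), the lowest astrocyte (4512 CPM) and ependymal (32.7 CPM) sums and the lowest Fas and Ccng1 of the sort; the part of these cell types was not tested. Without positive replicate 1, Fas had a log2 fold change of 0.95 ± 0.31 (adjusted p = 0.176) and Ccng1 of 0.60 ± 0.32 (adjusted p = 0.409). Pituitary markers summed to 7.23, 2329 and 5537 CPM in mCherry-positive libraries 1, 2 and 3, against 5.96, 219.8 and 176 CPM in mCherry-negative libraries. Replicate 1 was thus the lowest in both groups. Oligodendrocyte sums were 2914 to 4280 CPM in mCherry-positive and 2410 to 3161 CPM in mCherry-negative libraries, and neuronal sums 1049 to 2007 and 1474 to 1960 CPM. Mural and fibroblast sums were 32.7 to 185 CPM in mCherry-positive and 128 to 358 CPM in mCherry-negative libraries, and endothelial sums, with 1 marker at 0 in each group, 6.30 to 7.81 and 5.01 to 5.16 CPM.

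The genes whose profile over the 12 libraries was most like that of 3 members were ranked among 10295 genes. The measure was the root mean square difference between standardised log2(CPM + 1) profiles, where 0 is identity, given as a description. For Cdkn1a the nearest were Tspan33 (0.327), Cers4 (0.380), Agbl3 (0.391), Oaf (0.411) and Smim19 (0.421). Of the other members, Phlda3 was the nearest to Cdkn1a at rank 26 (0.531), Fas was at rank 102, and Mdm2 at rank 1548. For Ccng1 the nearest were Adamts1 (0.214), Aldh6a1 (0.252), Mut (0.288), Rpgr (0.311) and Itfg1 (0.322), with Fas the nearest member at rank 34 (0.407). For Mdm2 they were Vps41 (0.361), Cog6 (0.403), Scamp1 (0.419), Fbh1 (0.428) and Dnm1l (0.430), and its nearest member, Trp53inp1, stood at rank 391. Members were thus not each other's closest profiles for any of these 3 genes.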

How the data were processed

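Per the labels' protocols, SMART-Seq v4 cDNA started from 0.8 ng (Hcrt sort) or 2 ng (MCH sort) of total RNA, with 11 PCR cycles, and 150 pg of it entered Nextera XT libraries. The deposited files hold raw counts of reads per Ensembl gene, 1 file per library, with no normalization by the authors. Per the submitters' processing notes, cutadapt 1.8, STAR 2.5.2b and HTSeq 0.6.1 were used on GRCm38; strand setting and annotation release are not stated in the sources used here. Each file's 5 entries that name no gene (31.4% to 38.2% of counted reads) were left out. Of 48709 identifiers, 48349 matched GENCODE M21, the source of symbols, positions and exon lengths. Without molecular identifiers, PCR copies cannot be told from separate molecules.

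Counts were tested with edgeR 4.0.16 in R 4.3.3 (TMM, filterByExpr with minimum count 10 and total 15, quasi-likelihood test, group as the only term, Benjamini-Hochberg adjustment over all genes tested, called at an adjusted p under 0.05). Each sort was fitted on its own 6 libraries. The difference between sorts and the comparisons across sorts used 1 fit of all 12. The SE was taken as the size of the log2 fold change over the root of the F statistic. CPM are plain counts scaled to 1000000 gene reads, without TMM, so a ratio of CPM can differ from the fold change. Chi-square values of replicate pairs over genes, per degree of freedom, ran from 6.20 to 88.5. No library was thus a copy of another of its group, and pairs across groups were not compared. The fit of each sort was tested on simulated counts with known changes. The fit of all 12 libraries and the alternative settings were not.

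The members and lists were chosen with earlier results of these data known. All members are named. Of the other lists the text names up to 4 genes called between positive and negative cells of a sort, by adjusted p. Where none was called it names up to 2 of highest CPM, and always Trp53, Mdm4 and Cdkn1b. Most calls of these lists between the sorts, and for the difference of both sorts, are not named. For 3 members it names the 5 genes of most alike pattern with at least 10 CPM. Alternatives were DESeq2 size factors, DESeq2 1.42.0, limma-voom (limma 3.58.1), no filter, a minimum count of 50, a replicate block, the other set of libraries in the fit, and each library left out. Promoter sequences are from RefSeq (GRCm38.p6).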

Additional observations from a re-analysis of the deposited data

How the results depend on the processing

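With 3 libraries a group, calls near the threshold moved with the setting, and the causes were not tested unless named. In the mCherry sort DESeq2 called 2 members, no filter 1 and the fit of all 12 libraries 1. Genes called there numbered 208 (94 higher, 114 lower), against 1476 with DESeq2 (885 and 591), 778 with no filter (485 and 293), 361 with a minimum count of 50, 343 with the replicate block, 1712 with all 12 libraries (883 and 829) and 202 with DESeq2 size factors (103 and 99). In the EGFP sort 801 genes were called with all 12 libraries, against 2622. The difference between sorts had 261 calls (160 and 101), 894 with DESeq2 (584 and 310), 675 with no filter and 195 with limma-voom (99 and 96). Among mCherry-negative against EGFP-negative cells 1429 genes were called with DESeq2, against 715, and 0 members with the replicate block.

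Leaving out 1 library gave 0 to 212 genes in the mCherry sort; it was 0 without mCherry-positive replicate 3, mCherry-negative replicate 1 or mCherry-negative replicate 2, where 2439, 3673 and 2764 genes had an unadjusted p under 0.05. It gave 2 to 8 members and 1137 to 5244 genes in the EGFP sort, and 27 to 591 genes for the difference. It gave 0 to 1 members and 1607 to 3566 genes for mCherry-positive against EGFP-positive, and 0 to 1 members and 269 to 847 genes for mCherry-negative against EGFP-negative cells.

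Log2 fold changes that changed sign when a library was left out were all uncalled with every library in. In the mCherry sort they were Mdm2 (-0.0617 to 0.21), Bbc3 (-0.34 to 0.13) and Mdm4 (-0.11 to 0.30). In the EGFP sort they were Bax (-0.35 to 0.0243), Bbc3 (-0.0899 to 0.12), Mdm4 (-0.20 to 0.10) and Trp53inp1 (-0.0747 to 0.72). For the difference they were Bbc3 (-0.40 to 0.0887), Ccng1 (-0.29 to 0.30), Fas (-0.0394 to 0.42), Mdm4 (-0.11 to 0.32) and Trp53inp1 (-0.0452 to 0.75). For mCherry-positive against EGFP-positive they were Mdm2 (-0.0378 to 0.25) and Phlda3 (-0.0234 to 0.16), and for mCherry-negative against EGFP-negative Bax (-0.23 to 0.0431), Mdm4 (-0.17 to 0.25) and Trp53inp1 (-0.11 to 0.35).

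Whether equal replicate numbers mark paired libraries was not settled. In the mCherry sort, deviations of same-numbered libraries correlated at 0.126, -0.0191 and 0.0246 for replicates 1, 2 and 3. The highest correlations with another number were 0.0447, 0.126 and 0.000459. In the EGFP sort the same-numbered values were 0.114, -0.00460 and 0.0287. The highest with another number there were -0.0540, 0.0398 and 0.0778. The main fits took the libraries as unpaired. With the replicate block 5 members and 3409 genes were called in the EGFP sort, 293 genes for the difference, 2561 for mCherry-positive against EGFP-positive and 571 for mCherry-negative against EGFP-negative cells.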
